A study of Mus musculus with 9 samples.

Results

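The T cell receptor recognises antigen through its alpha and beta chains, which have no signalling domain of their own, and it signals through the CD3 chains and the zeta chain bound to them. The kinase LCK phosphorylates tyrosine motifs in the tails of these chains, the kinase ZAP-70 docks there and phosphorylates the adaptors LAT and SLP-76, and these assemble the complex that starts calcium and Ras signalling. In tumours the CD3 gamma, delta and epsilon chains are made mainly by infiltrating T cells. CD247, ZAP-70, LCK and LAT are also made by natural killer cells, LAT also by mast cells and platelets, and SLP-76 (gene Lcp2) by several myeloid cells as well. The 8 genes described here, Cd3d, Cd3e, Cd3g, Cd247, Lck, Zap70, Lat and Lcp2, were chosen by name, with earlier results of these data known. All 8 were listed among the 42454 gene names of the count tables and were among the 18243 names with enough counts to be tested.

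The samples were tumours of MC38 cells, a mouse colon carcinoma line, grown in C57BL/6J mice and collected at day 21. In 5 tumours the implanted cells carried a CD43 knockout (CD43-KO), and in 4 they carried the vector (Vec, genotype labelled WT). The hosts in both groups were C57BL/6J mice, and no change to host CD43 is labelled. CD43 is a sialylated glycoprotein of leukocytes encoded by Spn, and the title of the series places the comparison in the immune response to colorectal cancer. Whether the knockout line was 1 clone is not given in the sources used here. RNA came from whole tumours, so carcinoma, stromal and leukocyte transcripts are mixed, and more T cells in a tumour and more of a transcript per T cell cannot be told apart. The labels name separate tumours but do not say how mice were assigned, and no batch is labelled.

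Libraries held 44814061 to 62194418 counts in CD43-KO and 60751738 to 72114385 counts in Vec tumours. Spn, the targeted gene, was at 6.81 to 33.6 CPM (counts scaled to library size with TMM factors) in CD43-KO and at 41.0 to 53.8 CPM in Vec tumours. The groups did not overlap, as in 3.5% of all names with every CD43-KO tumour below every Vec tumour. The log2 fold change of Spn was -0.93 ± 0.36 (SE), and it passed no test (edgeR adjusted p = 0.280, DESeq2 adjusted p = 0.098, voom adjusted p = 0.114). CD43-KO replicate 3 was the shallowest library and stood apart on the first principal component (100.02, against -45.6 to 51.2 in the other tumours). Its summed transcripts of 6 skeletal muscle genes reached 973 CPM. The other 4 CD43-KO tumours had 61.5 to 102 CPM and the Vec tumours 78.9 to 95.2 CPM. Fold changes of the receptor chain, kinase and adaptor genes named above are therefore also given without CD43-KO replicate 3. So are the DESeq2 counts over all names. Tests and fold changes of other single genes and of gene lists, and the ranking by similarity, are given only with this tumour included. The epithelial genes Krt8, Krt18, Epcam and Vil1 were at 1.41 CPM or less in every tumour and Cdx2 had no count, so the carcinoma origin was not visible from these genes. Across all 18243 names the edgeR quasi-likelihood test called 0 higher and 0 lower in CD43-KO at an adjusted p of 0.05, and 1414 higher and 1392 lower at an unadjusted p under 0.05, while DESeq2 called 247 and 365 and limma voom 165 and 332.

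Promoter sequences are shown for the CD3 gene cluster and for Lck, since the 3 CD3 genes lie together and Lck has separate start sites. Cd3g and Cd3d are transcribed away from each other from starts 1355 bases apart on chromosome 9, and the start of Cd3e lies 27.8 kb beyond that of Cd3d. Lck has 2 annotated starts, 15.3 kb apart on chromosome 4. The sequences are the 250 bases before each start, from RefSeq on GRCm38.p6, in the direction of transcription. Capitals mark CAGGTG, an E-box bound by E proteins, and TGTGGT, the core bound by RUNX factors, on either strand.
Cd3g, chr9:44980432-44980681, minus strand: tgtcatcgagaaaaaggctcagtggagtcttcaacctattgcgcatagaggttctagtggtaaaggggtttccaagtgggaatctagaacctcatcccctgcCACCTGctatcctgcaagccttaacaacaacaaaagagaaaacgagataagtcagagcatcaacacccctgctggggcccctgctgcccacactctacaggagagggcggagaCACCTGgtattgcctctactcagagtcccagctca
Cd3d, chr9:44981536-44981785, plus strand: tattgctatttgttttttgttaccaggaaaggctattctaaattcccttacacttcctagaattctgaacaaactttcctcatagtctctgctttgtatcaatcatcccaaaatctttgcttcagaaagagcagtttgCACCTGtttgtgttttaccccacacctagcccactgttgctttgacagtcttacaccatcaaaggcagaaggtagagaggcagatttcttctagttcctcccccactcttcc
Cd3e, chr9:45009612-45009861, minus strand: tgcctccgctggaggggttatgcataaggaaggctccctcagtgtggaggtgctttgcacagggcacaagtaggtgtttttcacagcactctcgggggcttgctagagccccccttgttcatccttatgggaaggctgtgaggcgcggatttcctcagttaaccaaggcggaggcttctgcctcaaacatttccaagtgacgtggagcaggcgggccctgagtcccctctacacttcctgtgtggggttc
Lck, upstream start, chr4:129573642-129573891, minus strand: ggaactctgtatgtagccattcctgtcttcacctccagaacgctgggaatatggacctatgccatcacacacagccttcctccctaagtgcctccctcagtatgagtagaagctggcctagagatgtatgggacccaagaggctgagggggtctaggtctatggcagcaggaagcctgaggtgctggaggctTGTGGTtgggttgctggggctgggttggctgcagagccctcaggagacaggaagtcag
Lck, downstream start, chr4:129558373-129558622, minus strand: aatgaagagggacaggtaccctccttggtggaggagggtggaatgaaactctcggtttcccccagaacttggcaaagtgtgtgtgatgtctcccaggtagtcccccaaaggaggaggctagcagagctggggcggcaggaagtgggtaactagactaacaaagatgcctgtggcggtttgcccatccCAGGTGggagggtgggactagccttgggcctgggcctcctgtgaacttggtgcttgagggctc
All 8 genes matched the table, with 11 windows in all because Zap70 has 3 starts and Lck 2. Of the 11 windows, 6 held CAGGTG or its reverse CACCTG, among them those of Cd3g, Cd3d and the downstream start of Lck, against 17.2% of all 32851 promoter windows of this length. TGTGGT or ACCACA was in 2 of the 11, against 14.05% of all windows, the GATA letters AGATAA or TTATCT in 2 of 11, against 9.99%, and the TATA box letters TATAAA or TTTATA were in 0 of 11, against 12.4%. The ETS core GGAA or TTCC was in 10 of 11 and in 93.4% of all windows. These matches are letters in a window and do not show binding.

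The CD3 chain genes had higher means in CD43-KO than in Vec tumours, with 3 of the 5 CD43-KO tumours high, and none of the 4 genes passed the test. Cd3d, the delta chain (chromosome 9, 44981786 to 44987339, GRCm38), was at 8.47, 15.8, 24.8, 3.52 and 4.51 CPM in CD43-KO replicates 1 to 5, against 3.46, 5.50, 6.14 and 6.00 CPM in Vec replicates 1 to 4. CD43-KO replicates 1, 2 and 3 thus lay above every Vec tumour, while CD43-KO replicates 4 and 5 lay within the Vec range. The log2 fold change of Cd3d was 1.11 ± 0.54 (SE) and edgeR's adjusted p was 0.349. Cd3g, the gamma chain (chromosome 9, 44969572 to 44980431), was at 8.28, 13.1, 25.8, 3.51 and 5.48 CPM in CD43-KO and at 3.47, 3.90, 6.999 and 6.73 CPM in Vec tumours. The order of the CD43-KO tumours was that of Cd3d, and the log2 fold change was 1.09 ± 0.53 (edgeR adjusted p = 0.358).

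Cd3e, the epsilon chain, which pairs with both delta and gamma (chromosome 9, 44998740 to 45009627), was at 6.56, 10.51, 9.06, 2.95 and 2.33 CPM in the CD43-KO tumours and at 2.87, 3.89, 3.56 and 3.31 CPM in the Vec tumours. It was the only 1 of the 8 genes whose highest tumour was CD43-KO replicate 2 and not replicate 3, and its lowest tumour was CD43-KO replicate 5. The log2 fold change of Cd3e was 0.88 ± 0.42 (edgeR adjusted p = 0.340). Cd247, the zeta chain, which carries most of the signalling motifs of the complex (chromosome 1, 165788681 to 165877277), was at 4.78, 6.91, 10.47, 1.63 and 2.32 CPM in CD43-KO and at 1.58, 2.37, 2.84 and 2.16 CPM in Vec tumours. Cd247 had the largest log2 fold change of the 8, at 1.22 ± 0.49, with an edgeR unadjusted p of 0.0330 and an adjusted p of 0.293. Cd3e, Cd247, Zap70 and Lcp2 overlap genes on the opposite strand, among them Pou2f1 at Cd247, and the strand setting of the counts is not given, so reads of such pairs cannot be told apart.

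**Figure D1:**
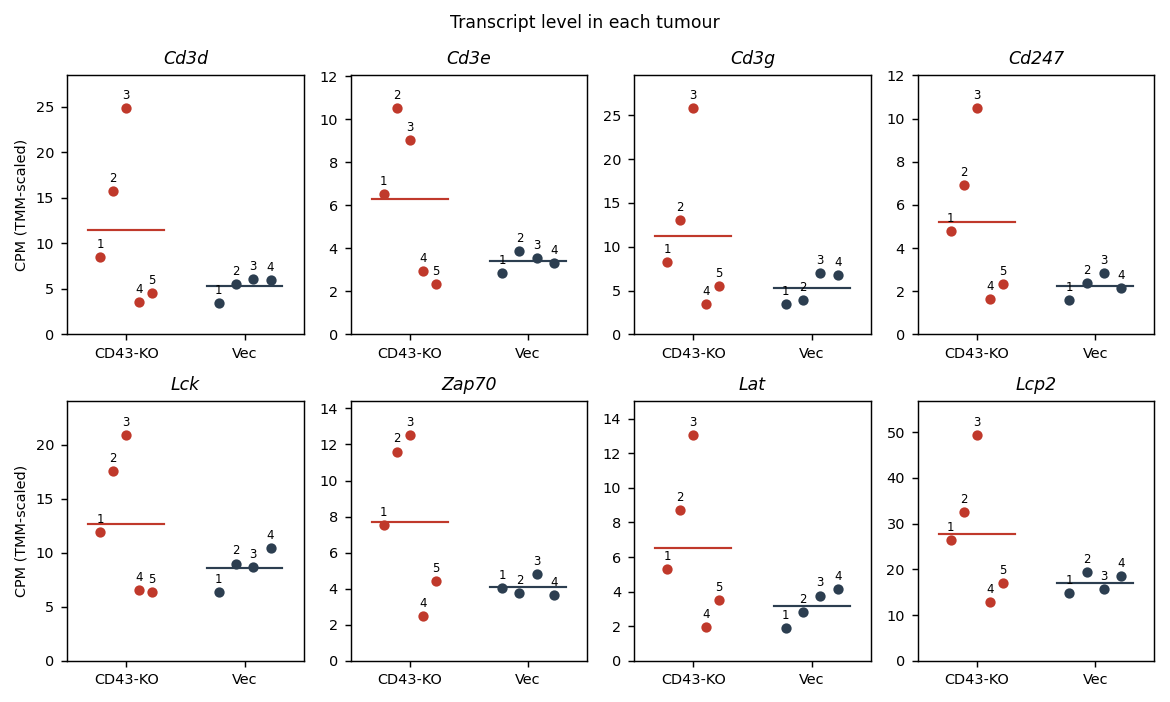
TMM-scaled CPM of each of the 8 genes (vertical axes, each from 0) in 5 CD43-KO and 4 Vec tumours. Points are tumours labelled by replicate and lines are group means. In all 8 panels replicates 1, 2 and 3 of CD43-KO exceed each Vec tumour, and CD43-KO replicates 4 and 5 lie near or below the Vec values.

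The kinase genes showed the same split of the CD43-KO tumours, and neither passed. Lck, the Src family kinase that phosphorylates the receptor chains (chromosome 4, 129548344 to 129573641), was at 11.9, 17.6, 20.9, 6.56 and 6.35 CPM in the CD43-KO tumours and at 6.33, 9.01, 8.70 and 10.48 CPM in the Vec tumours. Its log2 fold change of 0.55 ± 0.36 was the smallest of the 8 (edgeR adjusted p = 0.467). Lck counts are uncertain because a second name with a copy suffix, Lck_1, carried 30.7% to 42.3% as many counts as Lck in the 9 libraries. Lck_1 alone gave 4.30 ± 1.85 CPM in CD43-KO and 2.85 ± 0.65 CPM in Vec tumours (SD, n = 5 and 4, log2 fold change 0.59 ± 0.32), and summing both names gave a log2 fold change of 0.56. Zap70, the kinase recruited to the phosphorylated chains (chromosome 1, 36761798 to 36782818), was at 7.55, 11.6, 12.5, 2.47 and 4.45 CPM in CD43-KO and at 4.06, 3.78, 4.79 and 3.64 CPM in Vec tumours. CD43-KO replicate 4 was the lowest of all 9 tumours for Zap70. The log2 fold change was 0.92 ± 0.42, with an edgeR unadjusted p of 0.04996 and an adjusted p of 0.325.

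The adaptor genes also ranged more widely among CD43-KO than among Vec tumours. Lat, the membrane scaffold that ZAP-70 phosphorylates (chromosome 7, 126363824 to 126369570), was at 5.30, 8.74, 13.1, 1.92 and 3.50 CPM in the CD43-KO tumours and at 1.89, 2.83, 3.77 and 4.14 CPM in the Vec tumours. Its log2 fold change was 1.04 ± 0.50 (edgeR adjusted p = 0.348). Lcp2, which encodes the cytosolic adaptor SLP-76 (chromosome 11, 34046920 to 34092295), was at 26.5, 32.5, 49.4, 12.8 and 17.02 CPM in CD43-KO and at 14.9, 19.3, 15.7 and 18.5 CPM in Vec tumours. CD43-KO replicate 4 was again the lowest tumour, and the log2 fold change was 0.69 ± 0.34 (edgeR adjusted p = 0.360).

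Read together, the 8 log2 fold changes were all positive (median 0.98), against 54% of all tested names with a positive value and a median of 0.03 over them. All 8 were above 0.5, against 14% of all names. Because the genes and the lists below were chosen with earlier results known, such shares are a description only. None of the 8 passed (0% of all names did so in either direction), DESeq2 and voom called 0 of the 8 (1.35% and 0.904% of all names were called higher), and 2 of 8 had an edgeR unadjusted p under 0.05 with a higher mean, against 7.75% of all names. In the other direction, 0 of 8 had such a p with a lower mean (7.63% of all names), and 0 of 8 were called lower by DESeq2 (2% of all names) or voom (1.82%). In none of the 8 were the groups free of overlap, against 2.08% of names with every CD43-KO tumour above every Vec tumour. Replicates 1, 2 and 3 of CD43-KO exceeded each Vec tumour for 8 of 8 genes, a pattern noted after the values were seen and met by 11% of all names, while 23% of names had any 3 or more CD43-KO tumours above each Vec tumour. For Zap70 and Lcp2 replicate 4 was in addition below each Vec tumour, as in 3.08% of names. Two-sided exact permutation tests of the log2 levels, 1 per gene, gave p from 0.151 for Cd247 to 0.365 for Lck, where the smallest possible p is 0.00794. The 95% interval of the log2 difference by the same exact permutation test was -0.58 to 2.28 for Cd247 and -0.71 to 1.44 for Lck.

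For each of the 8 genes the SD relative to the mean was larger among CD43-KO than among Vec tumours, a difference that was not tested. The SD was 51.5% to 79.2% of the mean over the 8 genes in CD43-KO tumours (median over all names 19.0%) and 12.4% to 35.0% in Vec tumours (median 16.5%). Counts of the 8 genes in single libraries ran from 96 (Cd247) to 2129 (Lcp2), for which the Poisson error, which covers counting error only, is 10.2% and 2.17%. When CD43-KO replicate 3 was left out, the log2 fold changes were 0.61 for Cd3d, 0.71 for Cd3e, 0.52 for Cd3g, 0.80 for Cd247, 0.29 for Lck, 0.67 for Zap70, 0.62 for Lat and 0.37 for Lcp2. This was the lowest value that leaving out any 1 tumour gave for 7 of the genes, Cd3e being the exception, at 0.61 without CD43-KO replicate 2.

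**Figure D2:**
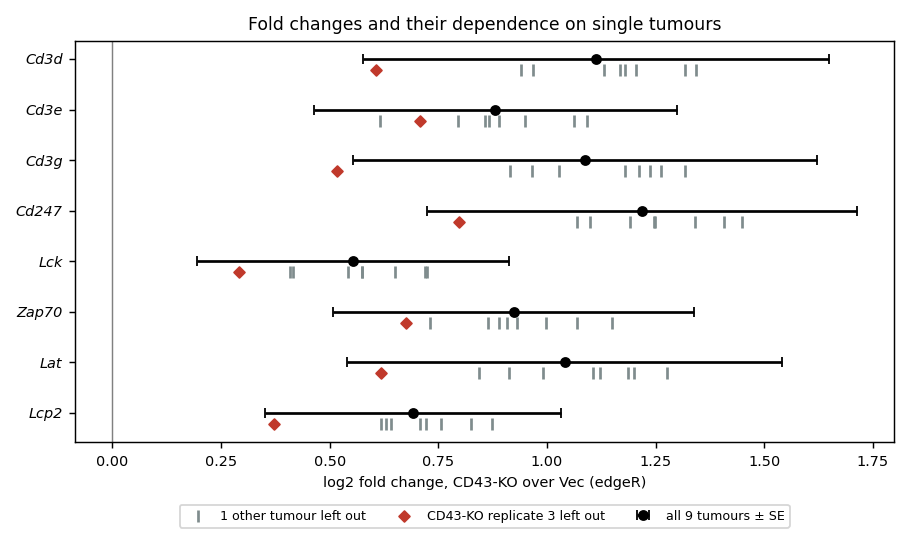
log2 fold change of CD43-KO over Vec for the 8 genes (horizontal axis) from edgeR on all 9 tumours (black points, bars are SE) and with 1 tumour left out (grey ticks, red diamond for CD43-KO replicate 3). All values lie above 0, and the diamond is the lowest value for every gene but Cd3e.

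Relative to one another, the chains kept closer proportions than their levels among CD43-KO tumours. Among Vec tumours some ratios varied more than 1 gene of the pair, though less than the other. There Cd247 counts were 0.32 to 0.61 times those of Cd3g, while Cd247 itself ranged 1.80-fold and Cd3g 2.02-fold. Cd3g counts were 0.83 to 1.21 times those of Cd3d in CD43-KO tumours and 0.71 to 1.14 times in Vec tumours, while Cd3d itself ranged 7.04-fold among CD43-KO tumours. Cd247 counts were 0.42 to 0.56 times those of Cd3d in CD43-KO and 0.36 to 0.46 times in Vec tumours. Cd3e moved apart from Cd3d in 1 tumour, as its ratio was 0.36 in CD43-KO replicate 3, against 0.52 to 0.84 in the other CD43-KO and 0.55 to 0.83 in Vec tumours. Per kilobase of exon in the GENCODE M21 annotation, mean levels in CD43-KO tumours ran from 6.29 CPM per kb for Cd3d and 6.20 for Lcp2 through 4.33 for Lck, 3.43 for Cd3g, 2.58 for Zap70, 2.35 for Lat and 1.54 for Cd3e to 0.98 for Cd247. In Vec tumours Lcp2 came first at 3.84 CPM per kb, before Lck (2.95), Cd3d (2.91), Cd3g (1.61), Zap70 (1.36), Lat (1.14), Cd3e (0.84) and Cd247 (0.42). Neighbours in the CD43-KO order differed by less than the SD of either gene over tumours. In the Vec order Lck and Cd3d differed by less than either SD, and Cd3g and Zap70, Zap70 and Lat, and Lat and Cd3e by less than the larger SD only. The annotation used for counting is not given, so lengths may differ from those behind the counts.

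The receptor itself was poorly covered by gene names. Trac, the constant region of the alpha chain, was listed at 0 in 7 of 9 libraries, but the name Trac_1 held counts in all of them, at 5.12, 9.74, 11.1, 2.30 and 2.79 CPM in CD43-KO and at 2.43, 3.02, 3.49 and 3.36 CPM in Vec tumours. The order of the CD43-KO tumours was that of Cd3d, and the log2 fold change of Trac_1 was 1.01 ± 0.45 (edgeR adjusted p = 0.323). The beta chain genes Trbc1 and Trbc2 had no count in 9 and 8 of the libraries, in tumours where Cd3e had at least 138 counts, so their zeros are given as listed values only. Trdc, the constant region of the delta chain of gamma delta T cells, was at 0.611 ± 0.490 CPM in CD43-KO and 0.219 ± 0.068 CPM in Vec tumours (SD, n = 5 and 4), and it also has a copy name. Of the 11 names listed for receptor constant chains and associated receptors 5 could be tested, all with a log2 fold change above 0 (median 1.35, against 54% of all names above 0). All 5 had an unadjusted edgeR p under 0.05 with a higher mean, against 7.75% of all names, but 0 passed. Cd2, an adhesion receptor of T cells, was at 4.54 ± 3.02 CPM in CD43-KO and 1.78 ± 0.45 CPM in Vec tumours, and Cd6, a surface receptor of T cells, at 5.82 ± 3.57 CPM in CD43-KO and 2.75 ± 0.54 CPM in Vec tumours (log2 fold changes 1.35 and 1.08).

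Other genes that promote proximal signalling, 27 in all and all tested, had 26 log2 fold changes above 0 (median 0.74), against 54% of all names. With edgeR 0 passed, and 12 had an unadjusted p under 0.05 with a higher mean, against 7.75% of all names. The largest fold change was that of Themis, a T cell adaptor that binds GRB2 (2.55 ± 2.07 CPM in CD43-KO, 0.767 ± 0.457 CPM in Vec tumours, log2 fold change 1.72 ± 0.74). The highest means over all 9 tumours were those of Grb2, at 118 ± 22.5 CPM in CD43-KO and 114 ± 10.6 CPM in Vec tumours, and Bcl10, at 72.7 ± 5.12 CPM in CD43-KO and 74.2 ± 3.51 CPM in Vec tumours, both widely expressed. In CD43-KO tumours alone Fyb was above Bcl10. DESeq2 called 2 of 27, both higher in CD43-KO (1.35% of all names were), named here after their values were seen. Fyb, an adaptor that binds SLP-76, was at 73.8, 85.0, 92.4, 72.8 and 77.6 CPM in CD43-KO tumours and at 63.1, 66.4, 64.9 and 57.8 CPM in Vec tumours, without overlap, as in 2.08% of all names (DESeq2 adjusted p = 0.0316, edgeR adjusted p = 0.192). Malt1, a protease that binds BCL10, was at 34.5 ± 8.72 CPM in CD43-KO and 20.7 ± 4.96 CPM in Vec tumours (DESeq2 adjusted p = 0.0275, edgeR adjusted p = 0.197). The voom adjusted p was 0.0426 for Malt1 and 0.0627 for Fyb, where voom called 0.904% of all names higher.

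Of 20 negative regulators of the same steps, 18 had a log2 fold change above 0 (median 0.53), against 54% of all names. An unadjusted edgeR p under 0.05 with a higher mean was found for 11, against 7.75% of all names, and 0 passed. Csk, the kinase that inactivates LCK, was the most abundant and the lowest in fold change, at 132 ± 10.4 CPM in CD43-KO and 155 ± 21.7 CPM in Vec tumours (log2 fold change -0.23 ± 0.11, edgeR adjusted p = 0.340). Dgkz, a diacylglycerol kinase, was at 64.5 ± 6.75 CPM in CD43-KO and 59.3 ± 5.51 CPM in Vec tumours. DESeq2 called 3 of 20, all higher in CD43-KO (1.35% of all names were), of which Ubash3a had the largest fold change of the list and the other two were named after their values were seen. Cbl, a ubiquitin ligase that marks ZAP-70 and receptor chains, was at 64.0, 60.5, 57.2, 58.6 and 56.5 CPM in the CD43-KO tumours and at 46.9, 46.1, 43.3 and 31.5 CPM in the Vec tumours (DESeq2 adjusted p = 0.0101, edgeR adjusted p = 0.180). Ubash3b, a phosphatase acting on ZAP-70 and SYK, was at 25.8, 27.1, 29.4, 24.3 and 24.2 CPM in the CD43-KO tumours and at 19.2, 19.9, 22.05 and 19.5 CPM in the Vec tumours (DESeq2 adjusted p = 0.0159, edgeR adjusted p = 0.191). For both genes all 5 CD43-KO tumours lay above all Vec tumours, as in 2.08% of all names, including CD43-KO replicates 4 and 5, in which none of the 8 receptor and signalling genes lay above the Vec range. Ubash3a, the relative of Ubash3b found in lymphocytes, was at 1.10 ± 0.73 CPM in CD43-KO and 0.336 ± 0.058 CPM in Vec tumours, with CD43-KO replicates 4 and 5 at 0.392 and 0.473 CPM (DESeq2 adjusted p = 0.0464, edgeR adjusted p = 0.220). The voom adjusted p was 0.0387 for Cbl, 0.0388 for Ubash3b and 0.145 for Ubash3a. Csk, Cbl, Dgkz, Ubash3b, Fyb and Malt1 had higher means in both groups than Cd3d (11.4 CPM in CD43-KO, 5.27 CPM in Vec tumours). Which cells made these transcripts was not tested.

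CD43-KO replicates 1 to 3 were higher in Ptprc than replicates 4 and 5, as in the 8 genes. No ratio of the 8 genes to Ptprc passed an exact test of the groups with all tumours in. Ptprc, which encodes CD45, a phosphatase of all leukocytes that also keeps LCK active, was at 85.3, 108, 148, 37.1 and 64.5 CPM in the CD43-KO tumours and at 42.7, 50.6, 61.7 and 35.9 CPM in the Vec tumours. Its order over the CD43-KO tumours was that of Cd3d. Among Vec tumours, by contrast, replicate 4 was the lowest in Ptprc but the highest in Lck and Lat. Ptprc had the largest log2 fold change (0.89) of 5 pan-leukocyte genes and Coro1a the smallest (0.24), and 0 of the 5 passed with edgeR. The sums of these 5 genes were 538, 654, 1040, 314 and 400 CPM in CD43-KO and 318, 376, 430 and 405 CPM in Vec tumours. The log2 ratio of Cd3d to Ptprc averaged -3.18 ± 0.50 in CD43-KO and -3.18 ± 0.44 in Vec tumours (SD, n = 5 and 4), a difference of -0.0028 (two-sided exact permutation p = 0.976, 95% interval by that test -0.75 to 0.79). The other differences of CD43-KO from Vec were 0.03 for Cd3g, -0.12 for Cd3e and 0.16 for Cd247 among the chains, -0.37 for Lck and -0.08 for Zap70, and 0.02 for Lat and -0.23 for Lcp2. Exact permutation p over the 8 ratios ran from 0.238 for Lck to 0.976 for Cd3d. The intervals were -1.06 to 0.19 for Lck and -0.40 to 0.74 for Cd247, so changes of either sign remain within them. For Lcp2, leaving out Vec replicate 3 gave a difference of -0.40 with an exact permutation p of 0.0179, the smallest possible for 5 against 3 tumours, and leaving out Vec replicate 4 gave -0.067. For Lck the difference was -0.14 without Vec replicate 4 and -0.14 against the mean of 5 pan-leukocyte genes.

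**Figure D3:**
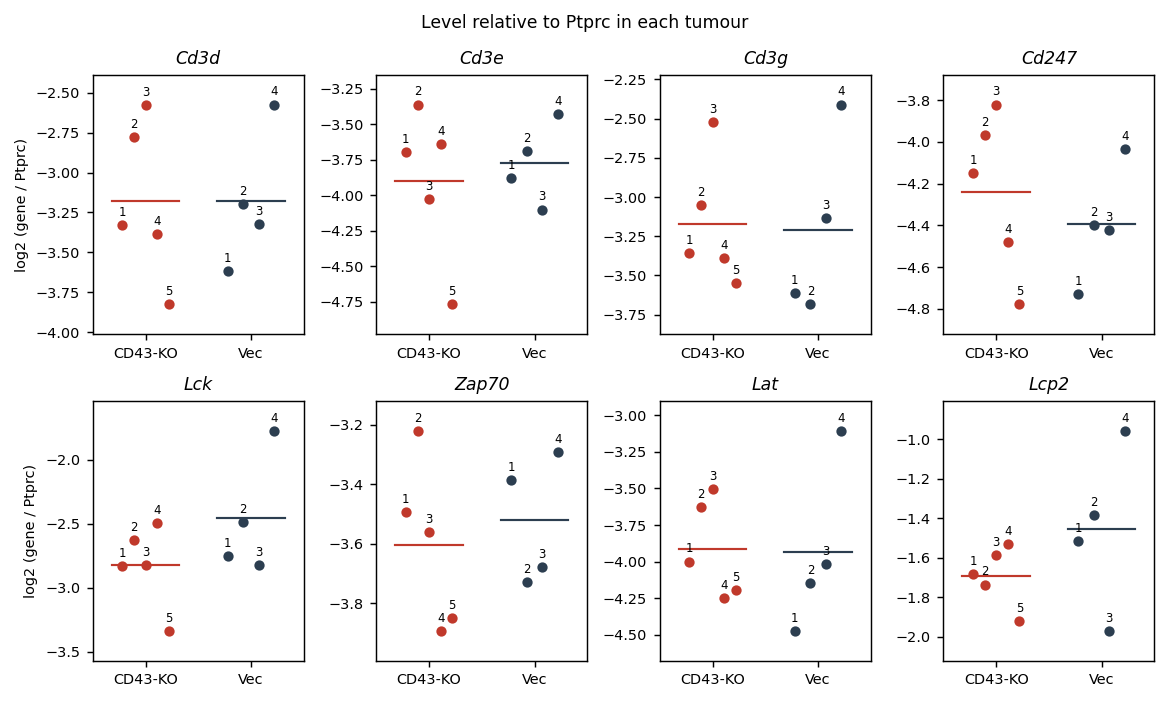
log2 ratio of each gene to Ptprc (vertical axes, each with its own range) in 5 CD43-KO and 4 Vec tumours. Points are tumours labelled by replicate and lines are group means. The groups overlap in all 8 panels, and Vec replicate 4, the tumour with the lowest Ptprc, is the highest Vec point in each.

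Marker lists of other cells and tissues, of which only some could supply these transcripts, also varied from tumour to tumour. Their part in the results was not tested. The summed level of the 4 CD3 chain genes was 28.1, 46.3, 70.1, 11.6 and 14.6 CPM in CD43-KO and 11.4, 15.7, 19.5 and 18.2 CPM in Vec tumours. The sums of 6 natural killer genes were 17.0 to 58.9 CPM in CD43-KO and 17.0 to 23.9 CPM in Vec tumours, with all 6 measured genes above 0 in log2 fold change (against 54% of all names) and 0 passing. Those of 6 macrophage and monocyte genes were 2152 to 8868 CPM in CD43-KO and 2283 to 4045 CPM in Vec tumours, with 6 of 6 above 0 and 0 passing. Mast cell genes summed to 5.86 to 32.8 CPM in CD43-KO and 8.76 to 15.4 CPM in Vec tumours (6 of 6 tested above 0), and megakaryocyte and platelet genes to 35.1 to 146 CPM in CD43-KO and 36.5 to 48.5 CPM in Vec tumours (4 of 5 tested above 0, Gp6 with no count in any library). B cell genes were low, at 1.06 to 3.95 CPM in CD43-KO and 0.395 to 1.155 CPM in Vec tumours, and 3 of 6, among them Ms4a1, were too low to test. Neutrophil genes summed to 13.9 to 88.1 CPM in CD43-KO and 7.21 to 79.7 CPM in Vec tumours and were lower in CD43-KO replicate 2 (19.2 CPM) than in replicate 4 (50.1 CPM), unlike the CD3 chains. Of the 5 neutrophil genes tested 3 had a log2 fold change above 0 and 0 passed with edgeR, while the most abundant, S100a8 and S100a9, were at -0.24 and -0.39. Csf3r, the receptor for granulocyte colony-stimulating factor, was at 11.4 ± 6.08 CPM in CD43-KO and 4.15 ± 0.55 CPM in Vec tumours (SD, n = 5 and 4). The groups did not overlap for Csf3r, as in 2.08% of all names. Its log2 fold change was 1.45 ± 0.34 (DESeq2 adjusted p = 0.0021, voom adjusted p = 0.0409, edgeR adjusted p = 0.167). DESeq2 called 1.35% of all names higher and voom 0.904%. The genes of lymph node stroma and follicles summed to 14.9 CPM in CD43-KO replicate 2 and 11.2 CPM in replicate 3, while the rest of the CD43-KO tumours had 4.33 to 7.24 CPM and the Vec tumours 4.49 to 6.03 CPM, with Cr2, Glycam1 and Madcam1 too low to test. Fat genes summed to 364 CPM in CD43-KO replicate 3, where the other CD43-KO tumours had 18.9 to 36.4 CPM and the Vec tumours 34.8 to 46.6 CPM.

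**Figure D4:**
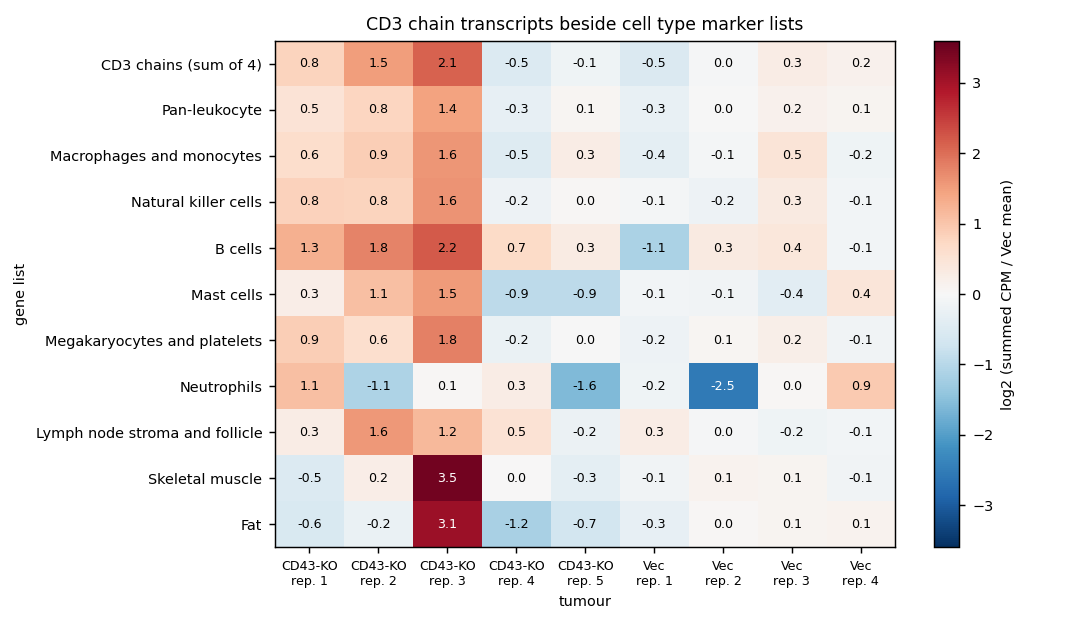
log2 of the summed CPM of each gene list (rows) over the mean of the 4 Vec tumours, for 5 CD43-KO and 4 Vec tumours (columns), with colour and printed value showing the same quantity. CD43-KO replicates 1 to 3 are above 0 in every row but those of neutrophils, skeletal muscle and fat. The B cell row is above 0 in CD43-KO replicates 4 and 5 as well, and the muscle and fat rows stand out in CD43-KO replicate 3.

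The genes with the most similar pattern to the mean log2 level of the 4 CD3 chain genes were ranked by Pearson's r over 9 tumours among 12553 names with a mean of at least 1 CPM, as a description in which all genes share the same libraries. CD43-KO replicate 3 was included. Against the mean of the other CD3 chains, Cd3e itself reached r = 0.903, with 4.38% of these names higher. Cd3g reached r = 0.941, with 2.03% of names higher, while Cd3d and Cd247 reached 0.991 and 0.986. The first was Selplg, the selectin ligand PSGL-1 of leukocytes (r = 0.993), followed by Arhgap25 (r = 0.992), Ucp2 (r = 0.992) and Nkg7, a granule protein of cytotoxic cells (r = 0.991). Vav1, an exchange factor that binds SLP-76 (r = 0.990), Nr1h3, a nuclear receptor of macrophages (r = 0.989), Sh2d1a, the adaptor SAP of T and natural killer cells (r = 0.988), Arhgap9 (r = 0.987), Cd8a, a chain of the CD8 coreceptor (r = 0.987), and Nrros (r = 0.987) made up the other places. Selplg was at 44.2 ± 18.4 CPM in CD43-KO and 28.5 ± 3.74 CPM in Vec tumours (SD, n = 5 and 4), and edgeR adjusted p over the 10 genes lay between 0.306 and 0.437.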

How the data were processed

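Bulk RNA sequencing of 9 tumours was analysed, each in a table of its own in which the authors deposited raw counts (whole numbers) for every gene name. HISAT2 2.1.0, StringTie 1.3.5, DESeq2 and the build GRCm38 appear in the submitters' processing notes, without roles, and how reads were counted, on which annotation and strand, is not given there. Names with exactly 1 count (433 to 545 of them in a library) were fewer than names with 2 (908 to 991), so counts may not be independent fragments. Of 42454 names 2341 were copies with a numbered suffix. All 36 pairs of libraries differed by more than sampling noise (chi-square per degree of freedom at least 32.9). Labels do not say whether tumours came from separate experiments, so tumours of a group may not be independent. The p-values set the group difference against the spread between these tumours only.

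Counts were tested in R 4.3.3 with edgeR 4.0.16 (filterByExpr with minimum count 10 and minimum total 15, TMM, robust quasi-likelihood F test on the group, Benjamini-Hochberg adjustment over 18243 names, threshold 0.05). SEs are the log2 fold change over the square root of F. DESeq2 1.42.0, limma 3.58.1 (voom with quality weights), other scalings and filters, summed copies and leaving out each tumour were alternatives. Scripts were tested on simulated data. Log2 levels for exact tests and ratios used a prior count of 2. Exact tests are two-sided and unadjusted, 8 for levels and 8 for ratios. Fold changes are CD43-KO over Vec. Replicates were numbered in order of deposition and pair nothing. The genes and lists were chosen with earlier results of these data known. All 8 genes are named. From each pathway list the 2 most abundant genes and those of largest and smallest fold change were named, as none passed. Marker lists are given as sums, and for neutrophils such genes were named as well.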

Additional observations from a re-analysis of the deposited data

How the results depend on the processing

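The 8 log2 fold changes stayed above 0 with an adjusted p over 0.05 in all 17 alternatives, from DESeq2 to leaving out each tumour. Their range with 1 tumour left out was 0.61 to 1.34 for Cd3d, 0.61 to 1.09 for Cd3e, 0.52 to 1.32 for Cd3g, 0.80 to 1.45 for Cd247, 0.29 to 0.72 for Lck, 0.67 to 1.151 for Zap70, 0.62 to 1.28 for Lat and 0.37 to 0.87 for Lcp2. Exact tests of the levels stayed above 0.05 in all alternatives run. The counts over all names moved from 0 higher and 0 lower to 247 and 365 with DESeq2, 165 and 332 with voom, 1 lower without a filter, 530 and 674 with DESeq2 without CD43-KO replicate 3 (chosen after seeing the data), and 0 to 8 higher and 0 to 21 lower with 1 tumour left out, the most being without Vec replicate 3. The cause was not tested. Ratio differences near 0 changed sign. Against the mean of 5 pan-leukocyte genes those of Cd3d, Cd3e and Zap70 did so, at 0.22, 0.10 and 0.14. The others there were 0.26 for Cd3g, 0.38 for Cd247, 0.25 for Lat, -0.14 for Lck and -0.0087 for Lcp2. Exact permutation p with that mean ran from 0.143 for Cd247 to 0.952 for Lcp2. Against Lyz2 those of Cd3d and Zap70 changed sign, at 0.11 and 0.033, and the others ran from -0.25 for Lck to 0.27 for Cd247. With 1 tumour left out the ratio differences ran from -0.15 to 0.20 for Cd3d, -0.26 to 0.093 for Cd3e, -0.13 to 0.30 for Cd3g, 0.046 to 0.29 for Cd247, -0.49 to -0.14 for Lck, -0.18 to -0.0049 for Zap70, -0.16 to 0.30 for Lat and -0.40 to -0.067 for Lcp2. No paired analysis was possible because replicate numbers follow the order of deposition. With 5 and 4 tumours and this spread, the exact interval of the Cd247 difference ran from -0.58 to 2.28 on the log2 scale.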

Other observations

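The tested counterparts of these kinases and adaptors in B and myeloid cells had higher means in CD43-KO than in Vec tumours. Of 15 genes 14 were tested, and all 14 had a log2 fold change above 0 (median 0.54), against 54% of all names. Among them 5 had an unadjusted edgeR p under 0.05 with a higher mean, against 7.75% of all names, and 0 passed with edgeR or DESeq2. Tyrobp, the signalling partner of myeloid and natural killer receptors, was at 155 ± 103 CPM in CD43-KO and 89.4 ± 16.8 CPM in Vec tumours (SD, n = 5 and 4), and Fcer1g, the shared gamma chain of Fc receptors, at 117 ± 66.2 CPM in CD43-KO and 82.7 ± 14.95 CPM in Vec tumours. Cd79b, a signalling chain of the B cell receptor, had the largest log2 fold change (1.86 ± 0.92, means of 1.07 CPM in CD43-KO and 0.293 CPM in Vec tumours) and Btk the smallest (0.24 ± 0.26). Syk, the relative of ZAP-70 in B and myeloid cells, named after its values were seen, was at 84.05, 89.7, 83.6, 73.0 and 77.2 CPM in the CD43-KO tumours and at 72.5, 71.8, 66.1 and 57.2 CPM in the Vec tumours. The groups did not overlap for Syk, as in 2.08% of all names, at a log2 fold change of 0.29 ± 0.10 (edgeR adjusted p = 0.255).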
